A study of Mus musculus with 6 samples.

Results

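The genes described here are the cell's carriers and enzyme for organic osmolytes and the transcription factor that drives them, 6 genes in all: Slc6a12, Slc6a6, Slc5a3, Slc38a2, Akr1b3 and Nfat5. They were picked by name, with the irradiated against control values of these arrays already in view. Every probe set that the platform annotation assigns to exactly 1 of these symbols was taken, which gave 17 of the 45037 probe sets tested. These cover 5 of the 6 genes, out of 18193 genes on the array. For Akr1b3, which encodes aldose reductase, the enzyme that makes the osmolyte sorbitol, no probe set carried the symbol alone, and it is not analysed here.

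The arrays compare mouse mesenchymal stem cells irradiated for 12 h with broadband terahertz pulses, centred near 10 THz, with control cultures that stood beside them without irradiation. Each of 3 independent experiments supplied 1 irradiated and 1 control array, so 6 arrays form 3 pairs. The pulses lasted 35 fs and came at 1 kHz with a mean power density of 1 mW/cm2. All cultures, controls included, had received the fat-forming agents rosiglitazone (1 µM), insulin (5 µg/ml), IBMX (100 µM) and dexamethasone (1 µM) in a medium with 5% serum, added again 48 h before irradiation, and all were kept at 26 to 27 °C, below body temperature. The cells came from a commercial stock with no strain, age or sex of the animals in the labels.

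Cells that meet a salty or otherwise hypertonic medium first lose water and take up ions, and later replace the ions with small organic solutes, the osmolytes, that do not disturb proteins. Nfat5, also called TonEBP, is the transcription factor of this later step. It binds the tonicity-responsive enhancer, a short DNA site near its target genes, and raises transcription of the carriers that bring osmolytes in. Slc6a12 imports betaine and GABA, Slc6a6 imports taurine, Slc5a3 imports myo-inositol, and Slc38a2 imports neutral amino acids such as glutamine and alanine. Slc38a2 is also known to respond to amino acid shortage. Betaine transport by Slc6a12 is best known from the kidney medulla and the liver, while taurine and inositol carriers occur in most tissues. Neither the medium's osmolality nor any osmolyte was measured in the sources used here.

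The promoter of Slc6a12 is printed because a match to the Nfat5 site lies in it, and because Slc6a12 had the widest difference of the members. The sequence is the 250 bases before the most upstream of the 5 starts that RefSeq gives for the gene, at chr6:121342324-121342573 of GRCm38.p6 on the plus strand, credited to RefSeq. Capitals mark the match.

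Slc6a12: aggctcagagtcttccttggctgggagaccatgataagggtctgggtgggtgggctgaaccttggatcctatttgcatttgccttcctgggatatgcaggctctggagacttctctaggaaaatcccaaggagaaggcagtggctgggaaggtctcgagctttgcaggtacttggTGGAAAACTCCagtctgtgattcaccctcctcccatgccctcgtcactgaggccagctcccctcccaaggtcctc

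The search used the site's invariant part, TGGAAA, and the full tonicity-responsive enhancer consensus of 11 bases, which begins with that part, on both strands of windows of 300 bases. The invariant part contains GGAAA, the letters that the calcium-regulated NFAT factors also bind, so a match does not name a factor. In Slc6a12 the full match ran from base -75 to base -65 relative to the start. The 4 other Slc6a12 windows and the single windows of Slc5a3, Slc38a2 and Nfat5 held neither the part nor the full consensus. Slc6a6 and Akr1b3 had no window. Sequence outside the windows was not searched, so a gene without a match here may still have a site elsewhere. Of all 32851 RefSeq windows, 21.4% held TGGAAA and 4.96% held the full consensus. Slc6a12's matching window was 55.7% G and C, and those of Nfat5, Slc38a2 and Slc5a3 were 72.0, 73.0 and 73.3%, against a median of 52.7% over all windows. The array cannot show which of the Slc6a12 starts was used.

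Each probe set has a deposited log2 value on each array, where 1 unit is a doubling. A probe set is called dim here where its mean was below 6 in both groups, and differences are irradiated minus control within an experiment. Since the members were chosen with these differences known, they are given as a description with no test. Their SE comes from a limma fit in which the experiment was a block. It is a moderated SE, for which limma draws the variance of each probe set toward that of all probe sets. Where the 3 differences scatter widely, it is smaller than an SE from those differences alone. The labels call the 3 pairs independent biological experiments.

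Slc6a12 read lower in every irradiated culture. Its single probe set, 1449382_at, read 6.02, 5.65 and 5.83 in the controls of experiments 1, 2 and 3, and 4.90, 4.34 and 4.08 in the irradiated cultures. Every irradiated value lay below every control value. The control mean was 5.83 ± 0.19 (SD, n = 3) and the irradiated mean 4.44 ± 0.42 (SD, n = 3), a log2 difference of -1.39 ± 0.14 (SE), or 2.63-fold lower. The differences in the 3 experiments were -1.12, -1.31 and -1.75, so the smallest of them still exceeded 1. Over all probe sets 0.0533% (24 of 45037) had a mean difference of -1 or lower, and 10 had a lower mean than Slc6a12. Among the 4964 probe sets with a mean level from 5 to 6, the Slc6a12 probe set had the lowest mean difference.

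The level of Slc6a12 limits what its value can say. It was dim by the threshold used here, with 1 control array at 6 or above, and it rests on 1 probe set with no detection call used here. In a dim probe set the fold on the array is usually compressed toward no change, and where the irradiated cultures reach background the value is only a bound.

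Slc6a6, the taurine carrier, is measured by 4 probe sets, 2 of them bright. The brightest, 1437149_at, read 11.57, 11.99 and 12.03 in controls and 11.12, 11.88 and 11.82 in irradiated cultures. The irradiated value was the lower within each pair, but the groups overlapped, because both cultures of experiment 1 lay below all the others. The mean difference was -0.26 ± 0.11 (SE), with -0.45, -0.11 and -0.21 in the 3 experiments. The second bright probe set, 1421346_a_at, read 9.97, 10.50 and 10.15 in controls and 9.39, 10.27 and 9.96 in irradiated cultures, a difference of -0.33 ± 0.12 (SE). Here too the pair of experiment 1 had the lowest mean. The mean of a pair spanned 0.59 and 0.71 between experiments for these probe sets, more than the difference between the groups. Without experiment 1 the brightest differed by -0.16.

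The dim Slc6a6 probe sets did not match each other, although the annotation gives them the same source sequence. One, 1420148_at, read 4.95, 5.20 and 5.25 in controls and 4.29, 4.79 and 4.88 in irradiated cultures, with no overlap and a difference of -0.48 ± 0.11 (SE). The other, 1449751_at, differed by 0.03 ± 0.10 (SE).

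Markers of macrophages were set beside Slc6a6. All 9 measured macrophage markers lay above the level of 6, among them Ptprc, the common leukocyte antigen, at 9.85 in controls, and Csf1r, the receptor for the macrophage growth factor, at 13.03. All 9 had lower means in irradiated cultures, where 47.9% of all genes did. Cd14 differed by -0.73 and the others by only -0.19 to -0.05. Their summed signal, as log2, was 15.43, 15.72 and 15.90 in controls and 15.26, 15.69 and 15.72 in irradiated cultures, lowest in experiment 1, as for Slc6a6. Its differences were -0.17, -0.03 and -0.18 in the 3 experiments, against -0.45, -0.11 and -0.21 for the brightest Slc6a6 probe set. In both groups the sum was highest in experiment 3, and the second bright Slc6a6 probe set in experiment 2. The part of these cells in the Slc6a6 values was not tested. In such mixed cultures fewer cells of a type and less RNA per cell cannot be told apart.

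Slc5a3, the myo-inositol carrier, had its widest differences in experiment 3. Its brightest probe set, 1435484_at, read 11.16, 11.30 and 11.08 in controls and 11.14, 11.09 and 10.34 in irradiated cultures. The irradiated culture of experiment 3 stood apart below the rest, and the groups overlapped. The mean difference of -0.32 ± 0.15 (SE) was -0.12 without experiment 3. The second probe set above the level of 6, 1440227_at, read 8.70, 8.94 and 8.11 in controls and 8.60, 8.55 and 7.57 in irradiated cultures, a difference of -0.34 ± 0.12 (SE) with the irradiated value lower in each pair. For both probe sets the order of the experiments was the same, with the smallest difference in experiment 1 and the largest in experiment 3. The dim 1422170_at differed by 0.09, -0.93 and -0.46.

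Slc5a3 overlaps the gene Mrps6, which encodes a mitochondrial ribosomal protein, in the RefSeq annotation, so signal from Mrps6 transcripts could enter. The 2 Mrps6 probe sets differed by -0.12 ± 0.11 (SE) and -0.19 ± 0.11 (SE), less than either bright Slc5a3 probe set. In the 3 experiments the first differed by 0.09, -0.14 and -0.31 and the second by 0.02, -0.28 and -0.32. Both were widest in experiment 3, the second by little over experiment 2.

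Slc38a2, the neutral amino acid carrier, read lower in every irradiated culture on its brightest probe set. This probe set, 1426722_at, read 12.82, 12.87 and 12.97 in controls and 12.46, 12.58 and 12.46 in irradiated cultures, with no overlap between the groups. The means were 12.89 ± 0.08 (SD, n = 3) and 12.50 ± 0.07 (SD, n = 3), a difference of -0.39 ± 0.10 (SE), or 1.31-fold lower. Its arrays were close together within each group, and the mean of a pair spanned 0.08 between experiments. The values lie high on the scale, where the arrays end between 14.41 and 14.53 and differences are usually small. Of the 411 probe sets with a mean level from 12 to 13, 3 had a difference as low, this one included.

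The 2 other Slc38a2 probe sets had nearly the same mean difference and more scatter between experiments. One, 1429593_at, read 9.76, 9.00 and 9.80 in controls and 9.43, 9.46 and 8.51 in irradiated cultures. Its differences of -0.33, 0.46 and -1.29 had both signs, and its mean of -0.39 ± 0.30 (SE) became 0.07 without experiment 3. The other, 1429594_at, read 6.48, 6.08 and 5.82 in controls and 5.82, 5.68 and 5.74 in irradiated cultures, a difference of -0.38 ± 0.13 (SE). The irradiated value was lower in each pair, most in experiment 1, and the groups met at 5.82. The annotation gives these 2 probe sets the same source sequence, so they are not independent readings, and their differences still ran in different orders over the experiments.

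Nfat5 itself, the factor that drives the carriers, differed little. Its bright probe set, 1438999_a_at, read 9.22, 8.95 and 9.08 in controls and 9.17, 8.99 and 8.95 in irradiated cultures. The groups overlapped almost fully, and the mean difference was -0.05 ± 0.10 (SE). The 5 other Nfat5 probe sets were dim, at control means between 2.92 and 5.25. Of these, 1426029_a_at differed by -0.24, -0.40 and -0.30 with no overlap, but its control mean was 3.66. The remaining 4 had both signs over the experiments and means from -0.16 to 0.07. Nfat5 is also controlled by its location in the cell and by modification of the protein, which an array does not measure.

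**Figure D1:**
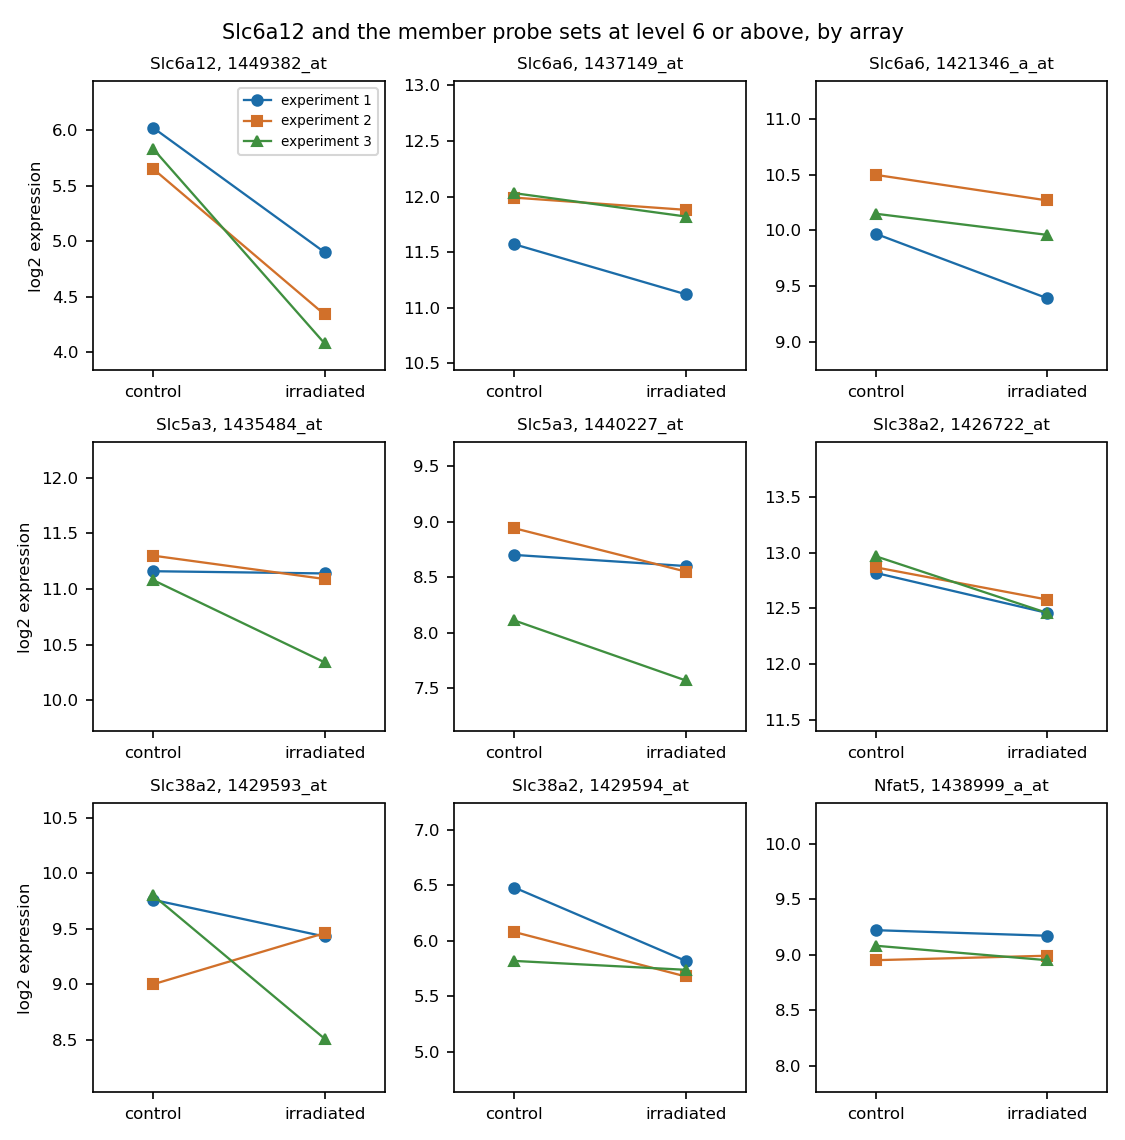
Log2 expression (vertical axis, a span of 2.6 log2 units in each panel) in the control and the irradiated culture of each experiment, joined by a line, for Slc6a12 and the 8 member probe sets at level 6 or above. All 3 lines slope down for Slc6a12 (means of 5.83 and 4.44) and for 1426722_at of Slc38a2, while the pair of experiment 1 lies lowest for Slc6a6 and the lines of Nfat5 are nearly flat.

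Among the 8 member probe sets at level 6 or above, 6 were lower in irradiated cultures in all 3 experiments, where 19% of all such probe sets were, and 1 had groups that did not overlap, against 6.9%. Over all 17, 9 were lower in all 3, against 13.8% of all probe sets, and 4 had groups that did not overlap, against 4.82%. The mean was below 0 for 15 of the 17. The members were chosen with these differences in view, so nothing is read from these counts. The experiments did not rank the members alike. Experiment 3 had the widest difference for Slc6a12, the bright Slc5a3 probe sets and the brightest Slc38a2 probe set, and experiment 1 had it for the bright Slc6a6 probe sets.

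**Figure D2:**
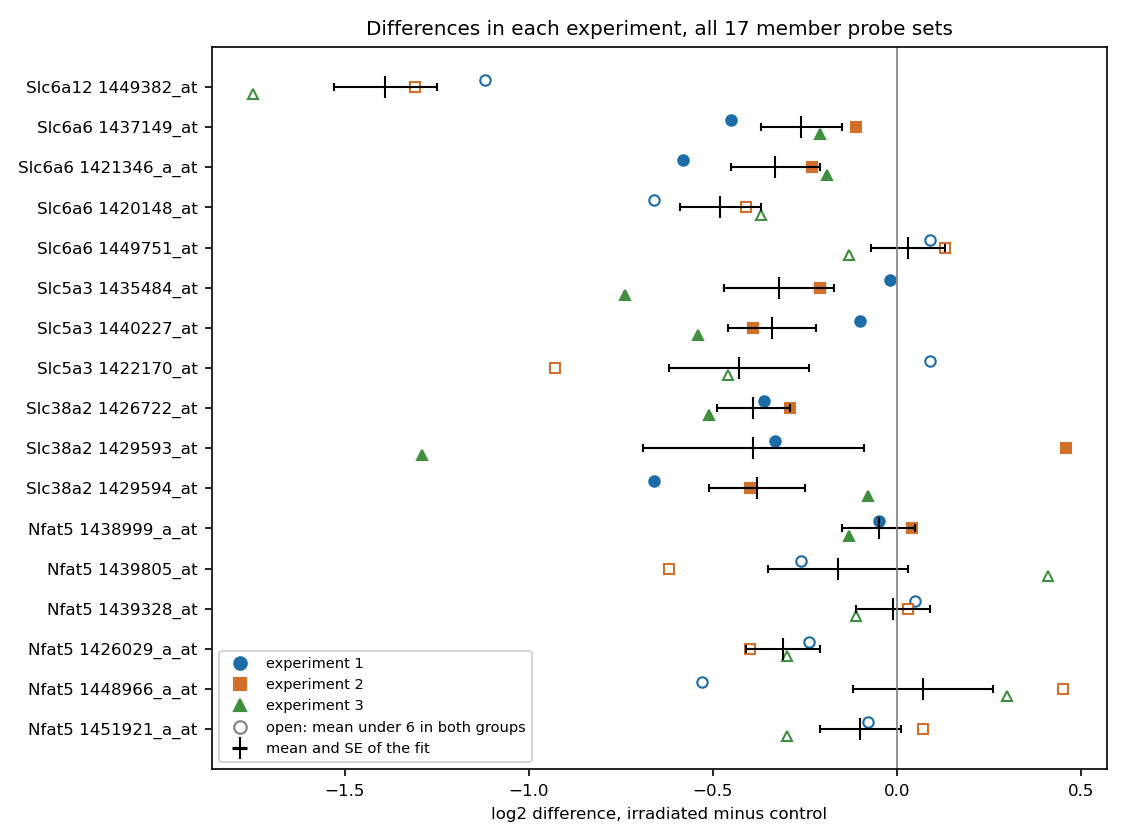
Log2 difference, irradiated minus control (horizontal axis), in each experiment for all 17 member probe sets, with the mean and its SE from the fit as a bar. Open symbols are dim probe sets; the Slc6a12 points lie from -1.75 to -1.12, and those of 1429593_at of Slc38a2 from -1.29 to 0.46.

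The spread of differences over the array depends on the level, so each member was set beside the probe sets of like level. For levels from 5 to 6 the mean differences of all probe sets ran from -0.537 to 0.439 between the 1st and 99th percentiles, and the Slc6a12 value of -1.39 lay outside. For levels from 11 to 12 the 5th percentile was -0.209, and the brightest probe sets of Slc5a3 (-0.32) and Slc6a6 (-0.26) lay below it. The bright Nfat5 probe set had 836 of 2319 probe sets from 9 to 10 at its value or lower, well inside the range. The members were picked with these differences in view. Their places in these ranges, and the ranks given above, are a description from which nothing is read.

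**Figure D3:**
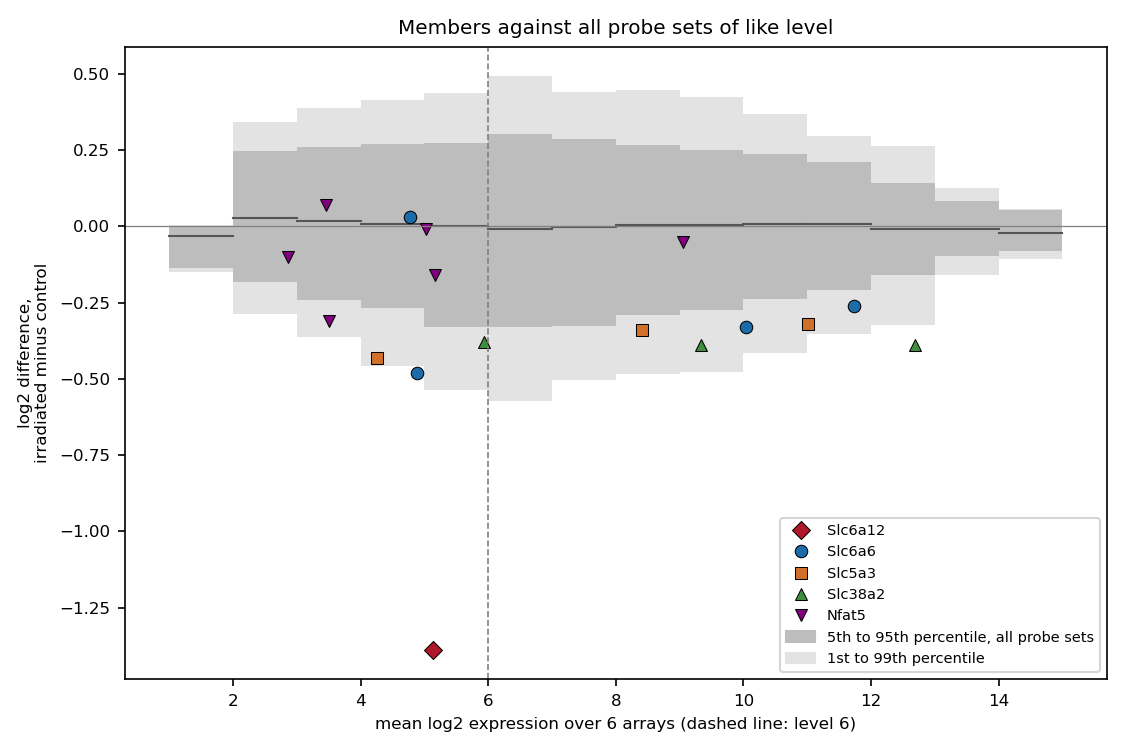
Mean log2 difference, irradiated minus control (vertical axis), against the mean log2 expression over the 6 arrays (horizontal axis) for the 17 member probe sets, over grey bands that give the percentiles of all probe sets in steps of 1 log2 unit. Slc6a12 lies at -1.39, below the 1st percentile of -0.537 at its level, and the Nfat5 points lie near 0 except 1426029_a_at at -0.31. The members were picked with these differences in view, so the bands are no test of them.

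Genes whose values over the 6 arrays followed a member most closely were found by Pearson correlation among 3407 expressed genes that spanned at least 0.5. Each correlation rests on 6 arrays that share the same groups and pairs, and with so many candidates high values arise readily. Closest to Slc6a12 were Pds5b (r = 0.995), Fzd7 (r = 0.982) and Ints13 (r = 0.981), whose differences of -0.38 to -0.29 in experiment 1 and -0.73 to -0.51 in experiment 3 were far smaller. Closest to Slc6a6 were Skap2 (r = 0.988), Limd2 (r = 0.987) and Plcg2 (r = 0.986). For Slc5a3 they were Spc25 (r = 0.990), Ncapd2 (r = 0.987) and Zcchc2 (r = 0.981), each with its widest difference in experiment 3. For Slc38a2 they were Ubxn7 (r = 0.994), Pnpla6 (r = 0.992) and Rps6ka5 (r = 0.990). Nfat5 spanned 0.27, too little for this comparison.

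Genes around the pathway were read from 6 lists of 107 genes, none of them a member, of which 98 had a probe set with their symbol alone. With limma p values adjusted by Benjamini-Hochberg over all probe sets, 0 of the 98 passed 0.05, as did 0% of all probe sets. An unadjusted p under 0.05 was reached by 13 of 98 (13.3%), 10 lower and 3 higher, where 8.31% of all genes reached that value, 4.61% lower and 3.7% higher. Without experiment 3 the count was 21 (21.4%), against 8.51% of all genes in the same fit. The lists were made with earlier results of these data known, so nothing is read from these shares, here or under the alternatives below. The median difference over the lists was -0.04, against 0.01 over all genes. In the lists 63 genes (64.3%) were lower, 33 higher and 2 at 0 (a mean within 1e-06 of 0). Over all 18193 genes 8721 (47.9%) were lower and 9299 higher.

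The list of other Nfat5 targets and genes induced by high salt held the 3 genes of all lists with a mean difference below -1. None of its 18 genes passed the adjusted threshold, 5 were lower and 1 higher at an unadjusted p under 0.05, and the median was -0.11. Over all genes 4.61% were lower and 3.7% higher at that unadjusted value. By the mean difference alone 10 of the 18 were lower (55.6%, against 47.9% of all genes) and 8 were higher. Hspa4l, a chaperone of the Hsp110 family known as osmotic stress protein 94, had a control mean of 8.48 ± 0.13 (SD, n = 3) and an irradiated mean of 7.46 ± 0.27 (SD, n = 3), a difference of -1.03 ± 0.15 (SE) with a limma adjusted p of 0.429. Its differences were -0.89, -0.74 and -1.45, and its 4 other probe sets differed by -1.31 to -1.10. The inducible Hsp70 gene Hspa1b differed by -1.33 ± 0.26 (SE), and Hspa1a, a near-identical copy that its probes may also read, by -1.47 ± 0.28 (SE). These chaperone genes answer to heat shock factors as well as to Nfat5, and their difference in these arrays was known when the list was made.

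Pnpla6, the phospholipase that makes the osmolyte glycerophosphocholine, had a control mean of 6.47 ± 0.14 (SD, n = 3) and an irradiated mean of 5.88 ± 0.08 (SD, n = 3). Its differences of -0.50, -0.44 and -0.83 gave a mean of -0.59 ± 0.11 (SE), with a limma adjusted p of 0.53. S100a4, a calcium-binding protein, differed by -0.27 and the lymphatic growth factor Vegfc by 0.30, both named after their values were seen. The kinase Sgk1, which is induced by salt and by glucocorticoids, differed by 0.11 (95% interval -0.13 to 0.35). Slc6a13, a GABA carrier that neighbours Slc6a12 on the chromosome, was dim at 3.84 in controls and differed by -0.11. The water channel Aqp1 was dim too and differed by 0.01.

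The Nfat5 consensus was found in the promoter windows of 2 of the 15 genes of this list that have a window, Pnpla6 and Slc6a13, and in 8 of 86 over all lists, against 5.74% of all genes with a window. Both sites lie on the opposite strand. They are printed along the gene's strand, with the matched bases in capitals, for comparison with Slc6a12. The Pnpla6 stretch is chr8:3515458-3515488 and the Slc6a13 stretch chr6:121303552-121303582, plus strand, GRCm38.p6, from RefSeq.
Pnpla6: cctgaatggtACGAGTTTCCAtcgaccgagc
Slc6a13: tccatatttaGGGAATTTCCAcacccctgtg
The Pnpla6 match begins at base -168 and the Slc6a13 match at base -77. A match is a description of the letters. Pnpla6 and Slc6a13 differed by -0.59 and -0.11. The other list genes with the full consensus were Stk39 at 0.18, Hif1a at -0.10, and Aqp7 and Slc38a4 at -0.05 each. Nfatc2 and Slc38a6, at -0.03 each, had it too. Slc6a13, Slc38a4 and Nfatc2 were dim, and the Stk39 value had a 95% interval of -0.06 to 0.42. A link between a match and a difference was not tested.

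Kinases and partners of Nfat5 and of cell volume signalling had a median difference of -0.06 over 19 genes, with 1 lower and 1 higher at an unadjusted p under 0.05. These were Wnk3 at -0.55 and the p38 activator Map2k6 at 0.56, both of them dim, and both singled out here once their values were known. Of all genes 4.61% were lower and 3.7% higher at that unadjusted value. Oxsr1, the kinase that Wnk kinases switch on to drive ion uptake, differed by -0.22, -0.23 and -0.17, a mean of -0.21 ± 0.09 (SE). Its partner kinase Stk39 differed by 0.09, 0.33 and 0.12, a mean of 0.18 that was 0.10 without experiment 2. The scaffold gene Ccm2 differed by -0.20, -0.07 and -0.37, a mean of -0.21 that was -0.13 without experiment 3. The tyrosine kinase Fyn differed by 0.13, 0.08 and 0.65, a mean of 0.29 that was 0.10 without experiment 3, and its other probe set differed by 0.09. These 3 genes kept their sign in every experiment, and leaving out the widest difference always shrinks such a mean. The other Ccm2 probe sets differed by -0.20 and -0.12, and the other Stk39 ones by 0.20 and, where dim, by -0.01. Wnk1 differed by -0.08, 0.28 and -0.53.

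Carriers and channels of cell volume had a median of -0.07 over 19 genes, and 3 were lower and 0 higher at an unadjusted p under 0.05. The shares over all genes were 4.61% lower and 3.7% higher. Slc4a2, an anion exchanger that loads the cell with chloride, differed by -0.34 ± 0.10 (SE), lower in 3 of 3 experiments. Atp1b1, the beta subunit of the sodium pump, differed by -0.34 ± 0.11 (SE), and Clcn3, a chloride and proton exchanger of endosomes, by -0.31 ± 0.11 (SE). Limma adjusted p values for these genes were 0.549, 0.566 and 0.589. The chloride importer Slc12a2 differed by -0.05 (95% interval -0.32 to 0.23), Lrrc8a, the essential part of the volume-regulated anion channel, by -0.03 (95% interval -0.26 to 0.21), and Clns1a by 0.17.

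Relatives of the members and enzymes of osmolyte metabolism had a median of -0.03 over 22 genes. In the limma fit 0 of them reached an unadjusted p under 0.05, where 8.31% of all genes did. Slc38a1, a neutral amino acid carrier like Slc38a2, differed by -0.27, -0.36 and 0.35, and Slc38a4 was dim. The myo-inositol carrier Slc5a11 was dim at 4.73 in controls and differed by 0.09, while Slc2a13, which moves myo-inositol with protons, differed by -0.19 (95% interval -0.43 to 0.05). Akr1b8, a relative of aldose reductase, differed by -0.04 (95% interval -0.28 to 0.20) and does not stand in for Akr1b3. Aldh7a1, which makes betaine, differed by 0.22 on its brightest probe set, while its 2 dim ones differed by -0.08 and -0.15 and the mean of all was 0. Ado differed by -0.16 on the brightest and by -0.19 to 0.01 on its 3 others. Gdpd5, which breaks down glycerophosphocholine, differed by 0.10, or 0.04 without experiment 2. The calcium-regulated factors Nfatc1, Nfatc2, Nfatc3 and Nfatc4 differed by -0.08, -0.03, -0.13 and -0.05.

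Genes of the amino acid response, which Slc38a2 is known to join when amino acids are short, had medians of 0.03, -0.29 and 0.44 in the 3 experiments. Of 16 genes 1 was lower and 1 higher at an unadjusted p under 0.05, where 4.61% and 3.7% of all genes were. The lower gene was the cystine carrier Slc7a11 at -0.54 ± 0.10 (SE), and the higher was the lipoprotein receptor Vldlr at 0.29 ± 0.10 (SE). Their limma adjusted p values were 0.53 and 0.588. The 5 other Vldlr probe sets differed by -0.18 to 0.20, and the mean of all of them by 0.04, so its value rests on the brightest. Asns, which makes asparagine, differed by -0.25, -0.62 and 0.87, and the master factor Atf4 by 0.01, -0.08 and 0.26. Slc7a1, the arginine and lysine carrier, differed by 0.12, 0.07 and 1.34, a mean of 0.51 that was 0.09 without experiment 3, and Sesn2 by 0.26 on average, or 0.11 without experiment 3. In experiment 3, where the median of these genes was highest, the brightest Slc38a2 probe set differed by -0.51 and its others by -1.29 and -0.08. A link between Slc38a2 and this response was not tested.

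**Figure D4:**
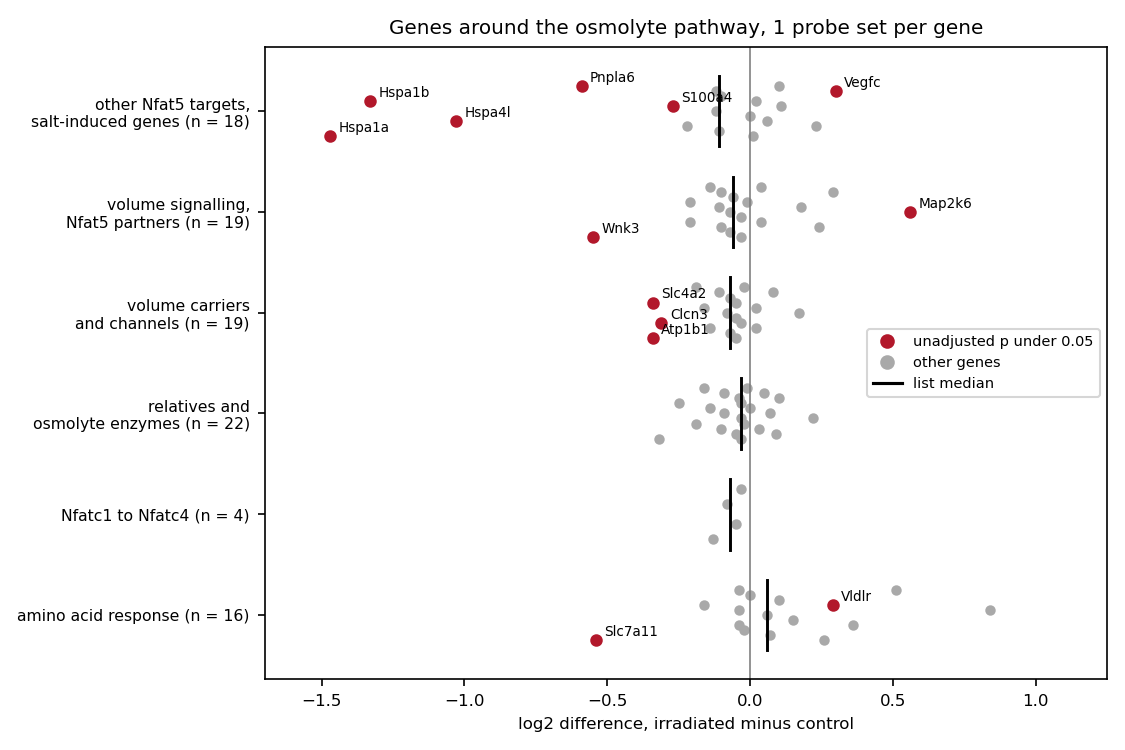
Mean log2 difference, irradiated minus control (horizontal axis), for each measured gene of the 6 lists (rows), with list medians as black bars and the 13 genes at an unadjusted p under 0.05 in red. Hspa1a, Hspa1b and Hspa4l lie from -1.47 to -1.03, and list medians lie between -0.11 and 0.06.

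The labelled cell type was read from markers. Of 9 measured stromal markers 8 lay above the level of 6 and all 6 measured fat cell markers did, while Thy1, a surface marker often used for mesenchymal stem cells, was dim at 4.11 in controls. All 9 measured macrophage markers also lay above the level of 6, so by these markers the cultures were not stromal and fat cells alone. The summed log2 signal of macrophage markers in controls was 15.43 to 15.90. For stromal markers it was 13.93 to 14.11, and for fat cell markers 15.46 to 15.64. Such sums depend on which genes are listed. Kidney tubule and endothelial markers lay below the level of 6 in 5 of 5 cases each. Of 5 epithelial markers Epcam, an adhesion protein, lay above it, at 7.20 in controls and 7.30 in irradiated cultures, and Cdh1 and the keratins Krt8, Krt18 and Krt19 lay below. Array medians lay between 4.75 and 4.80. The hybridisation controls, spiked in after extraction, were brighter on the irradiated than on the control array of experiment 3, by 0.51, against 0.07 and -0.06 in experiments 1 and 2. The differences of Slc6a12, the bright Slc5a3 probe sets, the brightest Slc38a2 probe set, Hspa1a, Hspa1b, Hspa4l and Pnpla6 were also widest in experiment 3, and the part of this array difference in them was not tested.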

How the data were processed

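RNA of each culture (200 ng of total RNA) was labelled for an Affymetrix mouse array, per the labels' protocols. The authors deposited log2 values per probe set to 2 decimals. RMA, affy and limma are named in the submitters' processing notes, without versions; which arrays were normalized together, and any genome build, is not given in the sources used here. Of 45101 probe sets 64 array controls were left out. A gene was read from its brightest probe set, which its other probe sets did not always match.

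The members and lists were chosen with earlier results of these data known. The groups were compared by limma, version 3.58.1 under R 4.3.3 (lmFit, eBayes, two-sided, Benjamini-Hochberg over 45037 probe sets), with the experiment as a block, because the design text compares each irradiated culture with its own adjacent control. Deviations from the group means correlated at 0.787, 0.028 and 0.324 for the 3 pairs and at -0.67 to 0.552 for crossed pairs, highest for irradiated 2 with control 3, so the pairing rests on that text. Residual degrees of freedom were 2. On simulated pairs of 45037 probe sets the fit found 72 of 100 changed 2-fold and 98 of 100 changed 4-fold, with 5 false calls. The simulation gave a changed probe set the same shift in all 3 pairs. In the data differences varied between pairs, as for Hspa1a at -1.30, -0.74 and -2.38, so these rates need not hold there. Of the 24 probe sets with a mean difference of -1 or lower, 0 passed adjustment. The number of arrays limits the precision.

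Named were all member probe sets, up to 4 expressed genes per list by the moderated statistic, a fixed set, and the 3 genes most like each member that spanned at least 0.5. Others are said to be named after their values were seen. The alternatives tried were dim probe sets left out, the mean of a gene's probe sets, omission of each experiment, a random or no block, a robust prior with an intensity trend, median centring and quantile normalization. Promoter windows of 250 bases before to 50 after a start were taken from RefSeq for 4 members by symbol. Plots used matplotlib 3.10.9 (Python 3.11.15).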

Additional observations from a re-analysis of the deposited data

How the results depend on the processing

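With no replicate block the count of probe sets past an adjusted p of 0.05 in limma stayed at 0 (2168 at an unadjusted p under 0.05, against 3631 with the block), and 9 pathway list genes (9.18%, against 4.85% of all genes) reached an unadjusted p under 0.05 against 13. With the experiment as a random block 2 probe sets passed, none from the lists. Leaving out each experiment in turn gave 9 to 21 list genes at an unadjusted p under 0.05 and 0 probe sets past adjustment; the share of all genes was 3.63, 5.47 and 8.51% without experiments 1, 2 and 3, where 9, 11 and 21 list genes did. Over those omissions the brightest probe set of Slc6a12 differed by -1.53 to -1.22, Slc38a2 by -0.43 to -0.32, Slc6a6 by -0.33 to -0.16, Slc5a3 by -0.48 to -0.12 and Nfat5 by -0.09 to -0.01. Under quantile normalization and median centring Slc6a12 lay at -1.40. Array medians already lay between 4.75 and 4.80, so centring could move the values little. The mean of a gene's probe sets leaves Slc6a12 at -1.39 by construction, since it has 1 probe set. Under these 3 settings Slc5a3 lay between -0.37 and -0.32. Of 345 values of the 35 named list genes with a direction 329 kept it, 2 were 0 and 14 turned; Asns, at 0, ran from -0.43 to 0.31 over the omissions. None passed adjustment. With the mean of all probe sets 14 of the 24 named list genes that have several turned sign or moved by over 1.5 times: Slc12a2 was 0.03, Nfatc3 0.02, Atf4 -0.09, Vldlr 0.04, Aldh7a1 0, Slc7a1 0.22, Fyn 0.19, Ado -0.09, Slc38a1 -0.05, Slc38a4 -0.01, Nfatc1 -0.05, Nfatc2 -0.10, Nfatc4 -0.18 and Asns 0.07; the cause was not tested. With an experiment left out, signs turned for Aqp1 (-0.11 to 0.11), Wnk1 (-0.30 to 0.10), Slc12a2 (-0.17 to 0.04), Lrrc8a (-0.08 to 0.01), Slc5a11 (-0.06 to 0.29), Slc38a1 (-0.32 to 0.04), Slc38a4 (-0.10 to 0.02), Akr1b8 (-0.10 to 0.02), Nfatc2 (-0.08 to 0.05), Nfatc4 (-0.14 to 0.01) and Atf4 (-0.04 to 0.13). Signal over background limits Slc6a12 and the other dim probe sets.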
